A study of Mus musculus with 6 samples.

Results

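Out of 12911 genes listed in the deposited tables, 9 grouped around Socs3, STAT3 and gp130 cytokine signalling were followed in sorted glomerular endothelial cells. They are the inhibitor genes Socs3 and Socs2, the transcription factor gene Stat3, the kinase genes Jak1 and Jak2, the receptor gene Il6st (gp130), its partner receptor genes Osmr and Lifr, and Il4ra of the interleukin-4 receptor. The set was taken by gene symbol and was chosen by a measured value, the higher Socs3 count in the STZ libraries. All 9 had 1 row each and passed the filter on low counts. The difference between STZ and control in these genes is therefore given as a description.

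The STZ animals were eNOS-null mice given STZ (streptozotocin, a toxin of pancreatic beta cells used as a model of diabetes; 3 libraries), and the controls were eNOS-null mice with no treatment (3 libraries). Both groups thus lack endothelial nitric oxide synthase, and no library with an intact gene enters. Each library held pooled RNA of 4 mice, so errors describe the spread between pools. Glomeruli, the filtering units of the kidney, were isolated on magnetic beads, and EYFP-positive cells were sorted from the digest. The promoter that drives EYFP, the STZ dose, the time after it, and the age and sex of the mice are not stated in the labels.

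Cytokines of the interleukin-6 family bind a private receptor chain and then gp130, the signal-transducing chain they share. Receptor-bound Janus kinases (JAKs) phosphorylate the chains and the transcription factor STAT3, which enters the nucleus and induces, among other genes, Socs3. The SOCS3 protein binds gp130 and JAKs and shuts the signal off, so Socs3 transcript is widely used as a readout of the pathway. In endothelium the pathway is best known for the response to inflammation, with induction of adhesion molecules and acute-phase proteins.

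The start regions of the 2 members with the largest positive log2 fold change are shown because STAT proteins bind the palindrome TTCNNNGAA. A window of 250 bases before to 50 bases after each annotated start was taken from RefSeq (GRCm38.p6, the assembly also called mm10), and 8 of the 9 members had at least 1. Socs3 lies on chromosome 11 (117966087 to 117969366, minus strand, NM_007707) and its window at chr11:117969317-117969616 on the minus strand. Il4ra lies on chromosome 7 (125552282 to 125579474, plus strand, NM_001008700) and its window at chr7:125552021-125552320 on the plus strand. Sequences run 5′ to 3′ on the strand of the gene, and capitals mark the match.
Socs3: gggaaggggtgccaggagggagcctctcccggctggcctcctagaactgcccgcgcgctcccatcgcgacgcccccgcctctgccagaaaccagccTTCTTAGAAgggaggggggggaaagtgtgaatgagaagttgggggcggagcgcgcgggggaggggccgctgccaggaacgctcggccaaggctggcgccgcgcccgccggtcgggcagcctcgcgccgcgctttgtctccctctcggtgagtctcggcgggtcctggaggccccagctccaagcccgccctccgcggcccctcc
Il4ra: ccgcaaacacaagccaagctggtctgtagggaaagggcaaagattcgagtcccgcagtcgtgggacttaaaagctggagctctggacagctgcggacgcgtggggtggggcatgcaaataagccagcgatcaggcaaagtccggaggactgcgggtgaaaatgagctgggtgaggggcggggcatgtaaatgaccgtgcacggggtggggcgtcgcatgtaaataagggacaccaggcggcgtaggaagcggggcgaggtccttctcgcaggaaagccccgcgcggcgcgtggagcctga
The Socs3 window held 1 match, TTCTTAGAA, from 154 to 146 bases before the start (chr11:117969512-117969520, minus strand). The motif reads the same on both strands. No match stood in the other 8 windows, which belong to Jak1, Jak2, Stat3, Il6st, Osmr, Il4ra and, with 2 windows, Lifr. Of all 32851 windows, 8.3% held TTCNNNGAA. The spacing TTCNNNNGAA, which STAT6 also binds, was found in 6.95% of all windows and in none of the members' windows. A match describes letters and not binding.

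Deposited counts summed to 10734376, 12069443 and 12662371.5 in the STZ libraries and to 8751732.5, 6020083 and 4387339 in the control libraries, with the deepest control library below the shallowest STZ library. Nos3, the gene the genotype targets, stood at 613 to 749 CPM (counts scaled to a common library size after TMM normalisation, in the usual CPM unit) in STZ and 757 to 917 CPM in control. Gene-level counts cannot tell transcripts of the null allele from intact ones. The libraries were endothelial by their markers: 12 of 12 endothelial genes were listed, with summed levels of 19782 to 21061 CPM in STZ and 14152 to 15269.6 CPM in control. Of these, 7 passed the test as higher (58.3%, against 5.47% of all tested genes) and 0 as lower (against 4.32%) by edgeR. There were 0 lower at an unadjusted p under 0.05 and 0 lower by DESeq2 or limma-voom. Summed mesangial and mural markers were 595 to 1166 CPM in STZ and 1424 to 1555 CPM in control. Of the 14 tested genes, 12 lay below control in every STZ library, against 13.7% of all tested genes. Podocyte markers summed to 5412 to 6786 CPM in STZ and 5123 to 8445 CPM in control, leukocyte markers to 262 to 314 CPM in STZ and 261 to 369 CPM in control, and tubule markers to 44.9 to 262 CPM in STZ and 155 to 539.98 CPM in control. The podocyte overlap rested on control pool 3 (5123 CPM), since control pools 1 and 2 stood at 7577 and 8445 CPM, above every STZ pool. The tubule overlap rested on control pool 3 too, with tubule sums of 319, 540 and 155 CPM in control pools 1, 2 and 3. Podocyte markers called lower by edgeR numbered 0 of 15 with all libraries (2 at an unadjusted p under 0.05, 0 by DESeq2 and 0 by limma-voom) and 11 without control pool 3. Mesangial and mural markers called lower numbered 3 with all libraries (21.4%, against 4.32% of all tested genes). They numbered 2 without control pool 1, control pool 2 or STZ pool 1. Without control pool 3 they numbered 5, without STZ pool 2 they numbered 8 and without STZ pool 3 they numbered 6. With all libraries there were 9 lower at an unadjusted p under 0.05, 6 by DESeq2 and 8 by limma-voom. Markers of other cell types were thus present in both groups, and their part in the values below was not tested. Xist averaged 0.687 ± 0.261 CPM in STZ and 709 ± 32.4 CPM in control (SD, n = 3 each), and the Y-linked gene Ddx3y 135 ± 4.09 CPM in STZ and 3.07 ± 0.375 CPM in control. The Y-linked genes Eif2s3y (mean 92.8 CPM in STZ and 1.13 CPM in control), Kdm5d (42.0 and 2.72 CPM) and Uty (33.3 and 3.46 CPM) went the same way as Ddx3y. By these transcripts the STZ pools read as male and the control pools as female. STZ treatment and sex thus cannot be told apart in any comparison given here.

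**Figure D1:**
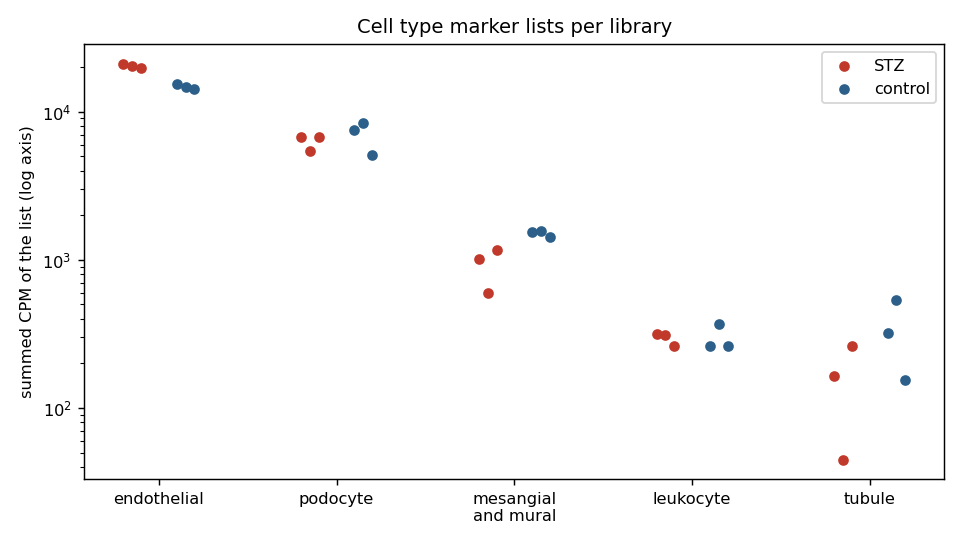
Summed CPM (log axis) of 5 lists of cell type markers in each library, with STZ points left of control points. Endothelial sums were higher and mesangial and mural sums lower in every STZ library. Podocyte, leukocyte and tubule sums overlapped, for podocytes and tubules through control pool 3 alone.

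Among the inhibitors, Socs3 was about 3 times as abundant in STZ as in control, whereas Socs2 was lower. Socs3 had 84.4, 93.1 and 79.6 CPM in STZ pools 1, 2 and 3, against 25.4, 39.2 and 22.1 CPM in control pools 1, 2 and 3. The lowest STZ pool thus stood at about 2 times the highest control pool. The fitted fold was 2.95, a log2 fold change of 1.56 ± 0.18 (SE, 95% interval 1.15 to 1.97), which ranks 29 from the top among 12786 tested genes. This is the value that chose the set and carries no test here. In bulk RNA more transcript per cell and more cells of a type that holds it cannot be told apart. The control pools varied more than the STZ pools, with a coefficient of variation of 31.4% against 7.98% in STZ. Control pool 2 was the highest of the controls. Without control pool 2 the log2 fold change of Socs3 was 1.84, and without control pool 3 it was 1.43.

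Socs2, an inhibitor best known for damping growth hormone and STAT5 signals (NM_007706, chromosome 10, 95411490 to 95416857, minus strand), had 17.2, 15.0 and 17.2 CPM in STZ, against 27.9, 26 and 32.7 CPM in control. Every STZ pool lay below every control pool. The fit put Socs2 1.74-fold lower (log2 fold change -0.80 ± 0.14, SE). Its deposited counts, 148 to 255 per library, overlapped between the groups and separated once scaled to depth. Socs3 was covered by 873 to 1077 deposited counts in STZ and by 100 to 244 in control. The ratio of Socs3 to Socs2 CPM within a library was 4.90, 6.19 and 4.64 in STZ and 0.909, 1.51 and 0.676 in control, so the 2 inhibitors stood near parity in control libraries and several-fold apart in STZ.

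Stat3, which carries the signal to the nucleus (NM_213660, chromosome 11, 100886810 to 100939511, minus strand), had 168, 168 and 173 CPM in STZ, against 136, 145 and 133 CPM in control. The groups did not overlap, and the log2 fold change was 0.30 ± 0.08 (SE). Stat3 was the least variable member in STZ, with a coefficient of variation of 1.68%. It shares 72 exonic bases in GENCODE M21 with Stat5a on the other strand, and the strand setting of the counting is not given. Stat5a itself stood at 42.5 ± 2.80 CPM in STZ and 40.2 ± 0.815 CPM in control (SD, n = 3 each).

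Jak1, which serves gp130 and many other cytokine receptors (NM_146145, chromosome 4, 101151974 to 101265282, minus strand), had 309.6, 277 and 297 CPM in STZ, against 249.6, 257 and 246 CPM in control. Jak2, which serves growth hormone, erythropoietin and interferon-gamma receptors as well as gp130 (NM_001048177, chromosome 19, 29251803 to 29313080, plus strand), had 64.4, 58.2 and 61.1 CPM in STZ, against 70.5, 65.2 and 74.2 CPM in control. Every STZ pool was above control for Jak1 and below it for Jak2. The log2 fold changes were 0.23 ± 0.09 for Jak1 and -0.19 ± 0.09 for Jak2 (SE), and neither passed the test over all genes (edgeR quasi-likelihood, Benjamini-Hochberg). The Jak1 to Jak2 ratio within a library was 4.81 ± 0.0474 in STZ and 3.60 ± 0.314 in control (SD, n = 3 each).

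Il6st, which encodes gp130 (NM_010560, chromosome 13, 112464070 to 112506860, plus strand), had 179, 145 and 174 CPM in STZ, against 197, 197 and 170 CPM in control, and was the only member whose groups overlapped. Its log2 fold change was -0.18 ± 0.10 (SE), with a 95% interval of -0.41 to 0.04. The partner chains were higher in every STZ pool.

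Osmr, the oncostatin M receptor chain (NM_011019, chromosome 15, 6813577 to 6874313, minus strand), had 94.3, 92.8 and 99.7 CPM in STZ, against 79.8, 67 and 76.4 CPM in control, a log2 fold change of 0.36 ± 0.09 (SE). Lifr, the chain for leukaemia inhibitory factor that oncostatin M also uses in mice (NM_013584, chromosome 15, 7140542 to 7197489, plus strand), had 385, 403 and 397 CPM in STZ, against 297, 279 and 339 CPM in control, a log2 fold change of 0.37 ± 0.10 (SE). Both genes lie on chromosome 15, and each differed by about 1.3-fold (1.28 for Osmr and 1.30 for Lifr). The STZ pools were tight for both, with coefficients of variation of 3.82% for Osmr and 2.34% for Lifr, against 8.93% and 10.0% in control.

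Il4ra, the chain that interleukin-4 and interleukin-13 share and that signals mainly through STAT6 rather than gp130, had 263, 279 and 249 CPM in STZ, against 131, 117 and 128 CPM in control. The lowest STZ pool exceeded the highest control pool by far more than the spread within either group. The fold was 2.10 (log2 fold change 1.07 ± 0.09, SE, 95% interval 0.87 to 1.27), rank 93 from the top. GENCODE M21 places an antisense transcript, Gm44876, across 571 exonic bases of Il4ra, and its level was not analysed here. Of the genes that act beside Il4ra, Il13ra1 had 34.8 ± 4.4 CPM in STZ and 33.1 ± 9.92 CPM in control, Il2rg 149 ± 6.17 CPM in STZ and 144 ± 13.7 CPM in control, and Stat6 217 ± 16.3 CPM in STZ and 232 ± 18.4 CPM in control (SD, n = 3 each), none past the test.

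**Figure D2:**
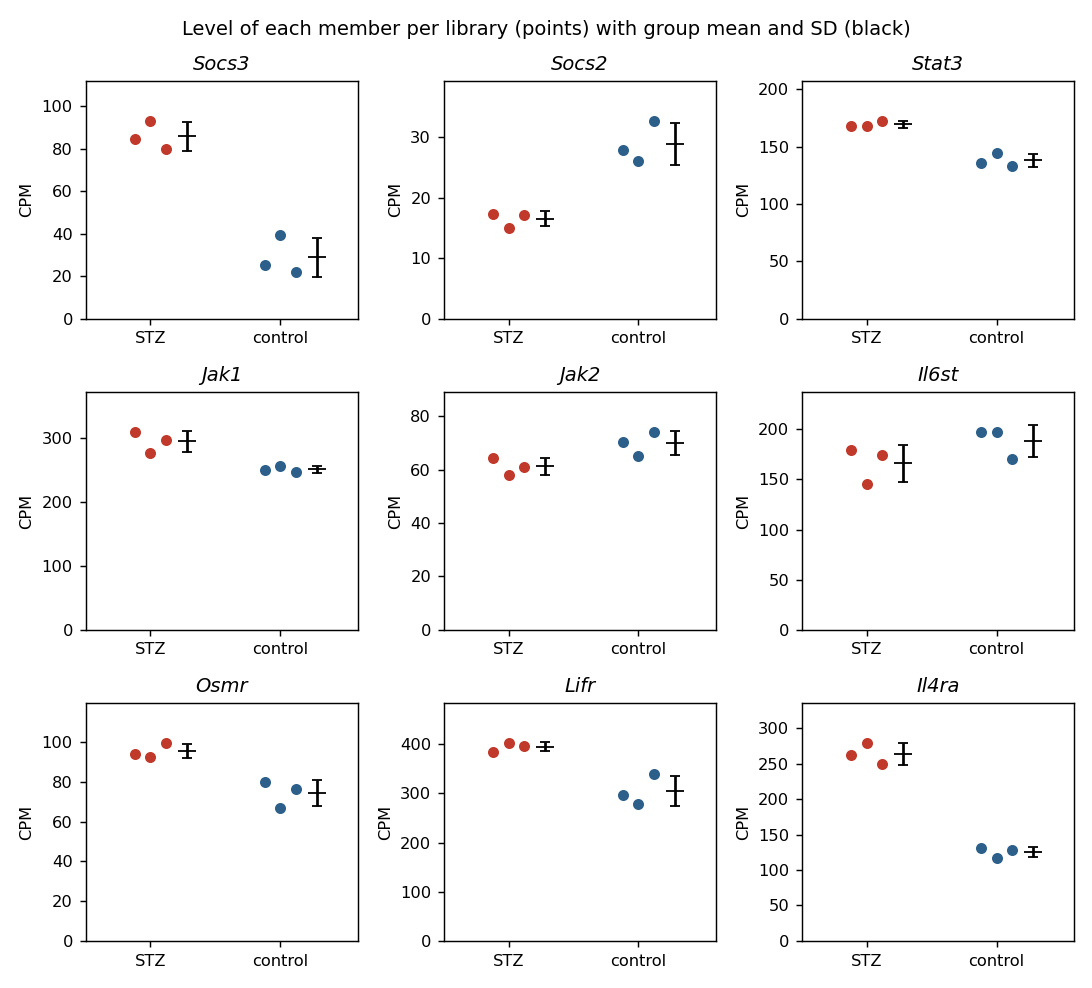
CPM of each of the 9 members in each library (points), with STZ left of control and the group mean and SD in black. The nearest pools of Socs3 stand at 79.6 CPM in STZ and 39.2 CPM in control, those of Il4ra at 249 CPM in STZ and 131 CPM in control, and Il6st alone overlaps.

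Counted with the edgeR test over all genes (adjusted p under 0.05), Socs3, Stat3, Osmr, Lifr and Il4ra were higher, Socs2 was lower, and Jak1, Jak2 and Il6st did not pass. Of all 12786 tested genes, 5.47% were called higher and 4.32% lower, 9.78% in all. The libraries of the 2 groups did not overlap in 8 of the 9 members, 6 above and 2 below, against 15.4% of all tested genes above and 13.7% below. As the same contrast chose the set, nothing is read from these shares. The Stat3 call was lost without STZ pool 1, 2 or 3 or control pool 1 or 3, the Lifr call without STZ pool 1, 2 or 3 or control pool 1 or 2, and the Osmr call without STZ pool 1 or 3 or control pool 2. Without STZ pool 1 or STZ pool 3 the members called higher were 2, Socs3 and Il4ra. Socs3 is counted among the calls as a description only, since its value chose the set.

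**Figure D3:**
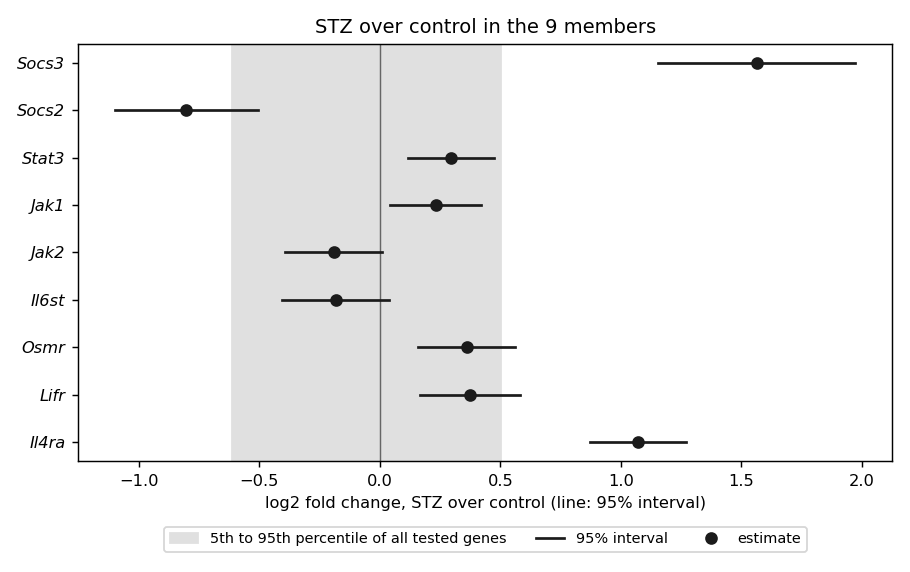
Log2 fold change of STZ over control for the 9 members (points) with the 95% interval (lines), over the range of the 5th to 95th percentile of all tested genes (grey, -0.61 to 0.50). Socs3, Il4ra and Socs2 lie outside that range, and the estimates of the other 6 lie inside it.

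Compared per transcript length, Jak1 was the most abundant member in both groups, at 55.6 ± 3.08 CPM per kilobase in STZ and 47.3 ± 1.01 CPM per kilobase in control (SD, n = 3 each). Il4ra came second in STZ at 51.7 ± 2.99 CPM per kilobase, overlapping Jak1, and stood at rank 5 in control at 24.6 ± 1.51. Lifr (40.9 ± 0.958), Stat3 (37.8 ± 0.635), Socs3 (31.5 ± 2.51) and Il6st (30.5 ± 3.38) followed in STZ, and of these neighbours only Socs3 and Il6st had overlapping ranges. Osmr (19.8 ± 0.755), Jak2 (12.3 ± 0.623) and Socs2 (7.41 ± 0.556) came last and were separated from each other.

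In control the order was Jak1, Il6st (34.5 ± 2.86 CPM per kilobase), Lifr (31.6 ± 3.16), Stat3 (30.8 ± 1.31), Il4ra, Osmr (15.4 ± 1.37), Jak2 (14.1 ± 0.912), Socs2 (13.0 ± 1.55) and Socs3 (10.6 ± 3.33). Il6st overlapped Lifr, Lifr overlapped Stat3, and the 4 lowest members each overlapped the next. Socs3 was thus lowest by mean in control and level with gp130 in STZ.

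**Figure D4:**
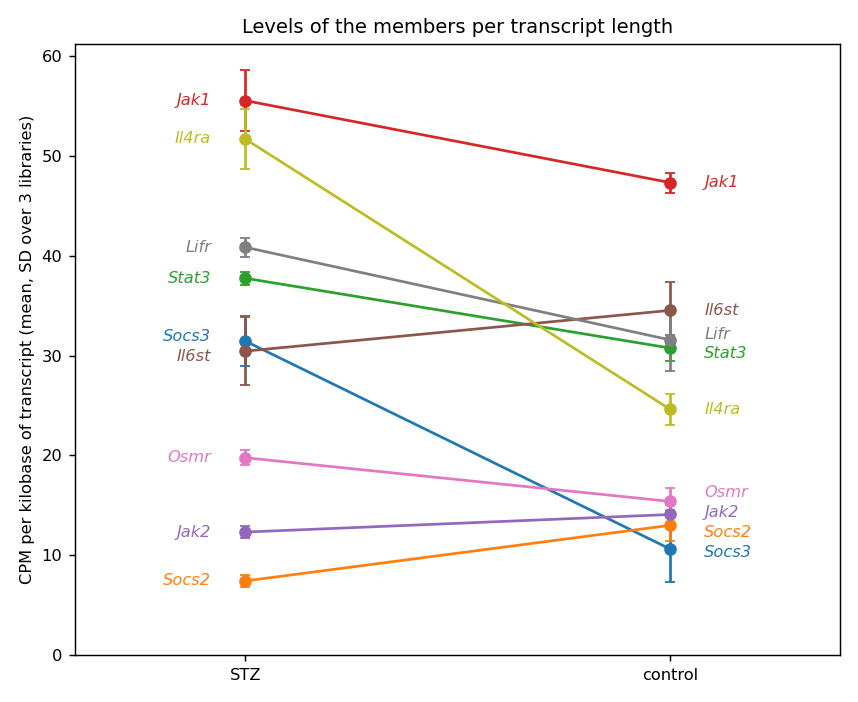
Mean CPM per kilobase of transcript for each member in STZ (left) and control (right), with SD over 3 libraries; lines join the same gene. Socs3 stands at rank 5 in STZ and 9 in control, Il6st at rank 6 in STZ and 2 in control, and Il4ra at rank 2 in STZ and 5 in control.

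Beyond the members, 69 tested genes of the pathway were counted in 5 lists. Of these genes, 8 passed as higher (11.6%, against 5.47% of all tested genes) and 2 as lower (2.9%, against 4.32%). All 8 higher genes were STAT3-induced genes. Among the ligands of the gp130 family, Il11, Lif, Osm, Cntf and Clcf1 were measured, at means below 12 CPM, and 0 of 5 passed in edgeR, with 0 at an unadjusted p under 0.05 and 0 by DESeq2 or limma-voom. Osm, the ligand of Osmr and made mainly by leukocytes, had 9.96, 8.30 and 9.31 CPM in STZ, against 3.96, 12.7 and 1.99 CPM in control. Control pool 2 was the highest of all 6, so the groups overlapped. Without control pool 2 Osm was called higher by edgeR (log2 fold change 1.53, adjusted p = 0.00755), against 0.54 with all libraries. Clcf1 had 5.90, 7.44 and 9.47 CPM in STZ, against 9.67, 8.83 and 14.8 CPM in control. Il6 itself and 6 other listed ligands were not analysed here.

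Of 17 other cytokine receptors, 0 passed as higher by edgeR (against 5.47% of all tested genes) and 1 as lower (5.88%, against 4.32%). There were 0 higher at an unadjusted p under 0.05, 0 by DESeq2 and 0 by limma-voom. The list median log2 fold change was -0.10, against -0.01 for all tested genes. The lower one was Ifngr2, a chain of the interferon-gamma receptor, with 51.3, 46.8 and 48.6 CPM in STZ, against 70.1, 57.5 and 70.0 CPM in control (log2 fold change -0.43 ± 0.10, adjusted p = 0.0192). Its call was lost without STZ pool 1, 2 or 3 or control pool 1. Ifnar1, of the type I interferon receptor, had 233 ± 15.2 CPM in STZ and 286 ± 29.5 CPM in control (SD, n = 3 each; edgeR adjusted p = 0.0831). The interleukin-10 receptor chain gene Il10rb was the most abundant of the list at 327 ± 16.6 CPM in STZ and 351 ± 21.6 CPM in control.

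None of the 8 other JAK and STAT genes passed in edgeR, against 5.47% of all tested genes called higher and 4.32% called lower. At an unadjusted p under 0.05 there were 0 higher and 1 lower, and DESeq2 and limma-voom called 0. Jak3, which pairs with the common gamma chain Il2rg and is best known from lymphocytes, was the most abundant at 386 ± 103 CPM in STZ and 305 ± 45.9 CPM in control (SD, n = 3 each; edgeR adjusted p = 0.326). Per transcript length Jak3 exceeded Jak1 in every library, with 81.1 to 128 CPM per kilobase against 52.3 to 58.4 for Jak1 in STZ, and 70.1 to 91.0 against 46.5 to 48.5 in control. Of the 13 leukocyte markers tested, 1 was called higher and 1 lower by edgeR (7.69% each, against 5.47% and 4.32% of all tested genes). Fcer1g, of myeloid cells, had 9.41 ± 1.26 CPM in STZ and 4.79 ± 1.44 CPM in control, and Cd79a, of B cells, 4.45 ± 1.31 CPM in STZ and 14.8 ± 5.22 CPM in control (SD, n = 3 each). The Fcer1g call was lost without STZ pool 1 or 2 or control pool 1. The part of leukocytes in the level of Jak3 was not tested. Stat2 had 256, 310.2 and 278 CPM in STZ, against 373, 313 and 318 CPM in control (edgeR adjusted p = 0.158).

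Of 17 other inhibitors (SOCS, PIAS and phosphatase genes), 0 passed as higher and 1 as lower by edgeR. The shares were 0% higher and 5.88% lower, against 5.47% and 4.32% of all tested genes. At an unadjusted p under 0.05 there were 2 higher and 3 lower, and DESeq2 and limma-voom called 0 higher and 1 lower each. Ptpn2, a phosphatase that removes phosphate from JAKs and STATs, had 25.6, 23.1 and 22.1 CPM in STZ, against 33.4, 32.8 and 30.0 CPM in control (log2 fold change -0.45 ± 0.12, adjusted p = 0.0328 by edgeR). The call was lost on leaving out any library but control pool 3. Ptpn1, a related phosphatase, stood the other way at 149 ± 8.78 CPM in STZ and 124 ± 3.82 CPM in control (edgeR adjusted p = 0.0706). The adaptor gene Sh2b3 had 169 ± 33.7 CPM in STZ and 145 ± 8.82 CPM in control.

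Of the STAT3-induced genes, 8 of 22 passed as higher (36.4%, against 5.47% of all genes) and 0 as lower by edgeR, with 10 higher and 2 lower at an unadjusted p under 0.05. DESeq2 called 8 higher and 0 lower, and limma-voom 8 higher and 1 lower (2 lower with sample weights). The list median was 0.33, against -0.01 for all tested genes. The list was chosen with earlier results of these data known and shares 5 genes with the immediate early and stress list, so the count is no independent evidence about STAT3.

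Lrg1, a secreted glycoprotein of the acute phase, had 41.6, 55.2 and 33.2 CPM in STZ, against 4.62, 8.03 and 5.30 CPM in control (log2 fold change 2.87 ± 0.25, adjusted p = 8.52e-05 by edgeR). Bcl2l1, which encodes the survival protein Bcl-xL, had 677, 667 and 649 CPM in STZ, against 283, 244 and 273 CPM in control (log2 fold change 1.32 ± 0.09, adjusted p = 2.48e-06 by edgeR). Icam1, a leukocyte adhesion molecule, had 310.3, 326 and 291 CPM in STZ, against 192, 164 and 162 CPM in control. In all 3 the lowest STZ pool stood well above the highest control pool. The kinase gene Pim3 (log2 fold change 0.96 ± 0.12), the transcription factor genes Fos (0.73 ± 0.14) and Maff (1.00 ± 0.23), the RNA-binding protein gene Zfp36 (0.38 ± 0.09) and the cyclin gene Ccnd1 (0.35 ± 0.09) rose too (SE), with edgeR adjusted p from 0.000349 for Pim3 to 0.0330 for Ccnd1. Lrg1, Bcl2l1, Icam1, Pim3 and Fos kept their calls without any 1 library. Zfp36 lost its call without STZ pool 2 or 3 or control pool 1, Maff without STZ pool 1 or control pool 1 or 2, and Ccnd1 without any library but control pool 3. Mcl1 (556 ± 40.3 CPM in STZ and 460 ± 20.1 CPM in control, adjusted p = 0.0879 by edgeR) and Tnfrsf1a (340 ± 24.6 CPM in STZ and 271 ± 34.7 CPM in control, adjusted p = 0.0774 by edgeR) did not pass with all 6 libraries. Tnfrsf1a passed without control pool 2 (edgeR adjusted p = 0.0264).

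**Figure D5:**
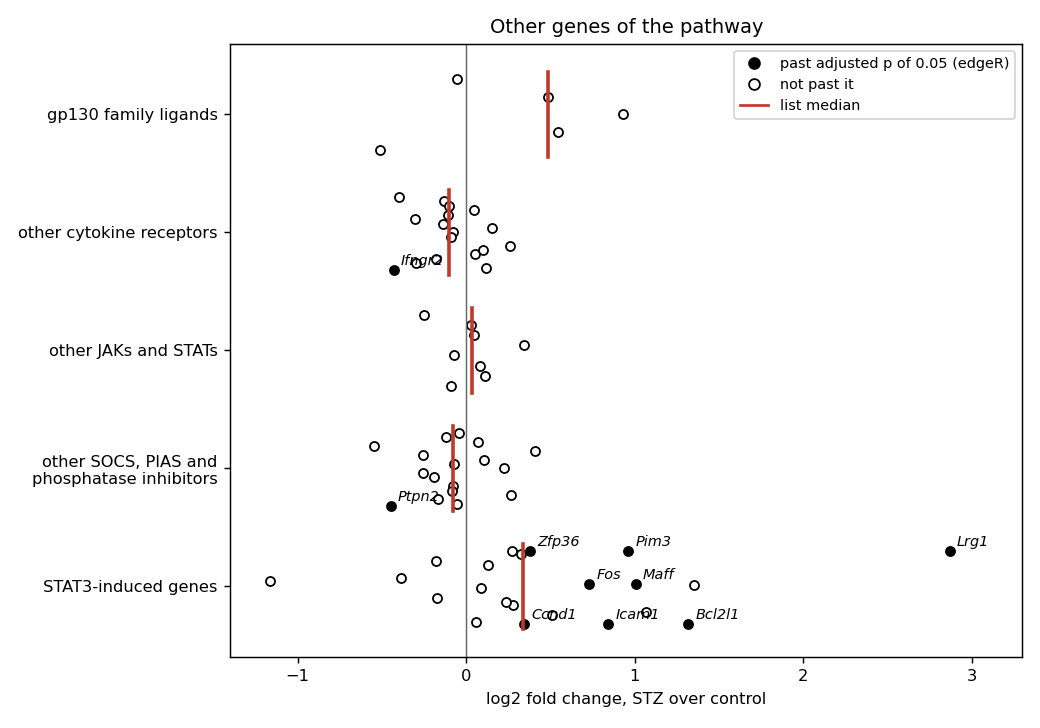
Log2 fold change of STZ over control for each tested gene of the 5 pathway lists (filled where past an edgeR adjusted p of 0.05, open otherwise, red line the list median). The 8 higher genes are all in the STAT3-induced list, and Ifngr2 and Ptpn2 are the 2 lower ones.

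Socs3 is also an immediate early gene. Of 28 tested immediate early and dissociation stress genes, 11 passed as higher (39.3%, against 5.47% of all tested genes) and 0 as lower by edgeR. At an unadjusted p under 0.05 there were 13 higher and 2 lower. DESeq2 and limma-voom called 0 lower, and limma-voom with sample weights 1. Their summed level was 8889.8 to 11351 CPM in STZ and 6128 to 7908 CPM in control. Rhob had 1526 ± 234 CPM in STZ and 852 ± 101 CPM in control (SD, n = 3 each), Hspa8 1714 ± 209 CPM in STZ and 1154 ± 124 CPM in control, and Nfkbia 556 ± 28.2 CPM in STZ and 344 ± 20.3 CPM in control. The other 17 did not pass, among them Klf2 at 1368 ± 572 CPM in STZ and 1208 ± 412 CPM in control. The part of cell dissociation in the level of Socs3 was not tested. Among STAT3-induced genes, 6 of 17 outside that list and 2 of 5 within it passed as higher, against 5.47% of all tested genes. The part of STAT3 or of dissociation in either count was not tested.

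Within each group the pool with the most Socs3, pool 2 in STZ and pool 2 in control, also had the most transcript of the transcription factor genes Cebpb and Cebpd, which were picked out after their values were seen. Cebpb had 22.1, 96.7 and 18.9 CPM in STZ pools 1, 2 and 3, against 11.1, 83.8 and 32.7 CPM in control pools 1, 2 and 3. Cebpd had 24.7, 55.9 and 19.2 CPM in STZ, against 8.57, 21.4 and 9.28 CPM in control. Neither passed between the groups. The pattern was not particular to these 2 genes, since Junb and Jund also peaked in pool 2 of both groups. Cebpb, Cebpd, Junb and Jund all belong to the stress list, and Cebpb, Cebpd and Junb also to the STAT3-induced list. How many of all genes peaked in pool 2 of both groups was not counted, so no link to Socs3 is read from this. Junb had 135, 234 and 115 CPM in STZ, against 79.1, 134 and 128 CPM in control. Jund had 162, 416 and 140 CPM in STZ, against 121, 344 and 299 CPM in control.

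The genes whose log2 CPM followed Socs3 most closely over the 6 libraries, among 8613 genes compared, were Vmp1 (Pearson's r = 0.998), Peg13 (0.997), Ube2l3 (0.994), Kitl (0.991) and Rbm42 (0.991). With the group means removed they were Ogfrl1 (0.999), Hgsnat (0.999), Ndufs5 (0.997), Tsnax (0.995) and Ube2e3 (0.994). These are descriptions over 6 libraries in 2 groups that also differ in depth and Xist level. As the highest of 8613 by each measure, these coefficients were picked for size, and no link to Socs3 was read from them. No gene stood in both lists.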

How the data were processed

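The analysis used 6 deposited tables, 1 per library, with groups and replicate numbers from the labels. The authors deposited expected counts per gene, not normalised and in multiples of 0.5, with transcript length, for 12911 genes. How reads were aligned and counted, with which strand setting and filter, is not given in the sources used. The submitters' processing notes name mm10 and limma. The 34 blank cells were read as 0. Listed starts were raised by 1, which matched GENCODE M21 starts in 2321 of 5850 genes with a matching end, against 175 as listed.

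After rounding to whole counts, filterByExpr and TMM scaling, a two-sided robust quasi-likelihood test was run in edgeR 4.0.16 (R 4.3.3). P-values were adjusted over 12786 genes by Benjamini-Hochberg, with a threshold of 0.05. SE is of the fitted log2 fold change, and log2 CPM used a prior count of 2. The biological coefficient of variation was 0.117. The pipeline was tested on simulated data. Libraries of a group differed from each other beyond sampling noise. DESeq2 1.42.0 and limma 3.58.1 (voom) were alternatives. The members, lists and tests were chosen with earlier results of these data known. Named genes were the members, Nos3, called genes of each list by smallest p with the most abundant others, and the 5 genes most like Socs3 by each measure, with at least 4 in mean log2 CPM. Stat5a, Il11, Lif, Cntf, Il13ra1, Il2rg, Stat6, Cebpb, Cebpd, Junb, Jund, Uty and the shared-list counts were added after their values were seen.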

Additional observations from a re-analysis of the deposited data

How the results depend on the processing

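Over 16 alternatives (6 that leave out 1 library and 10 others), 0 of the 69 named genes reversed a call, which needed a change of sign. Of the combinations of named gene and alternative, 84 lost a call, 10 gained a call and 1010 stayed the same. The log2 fold change was 1.43 to 1.84 for Socs3, the value that chose the set, -0.87 to -0.71 for Socs2 and 1.02 to 1.11 for Il4ra, given as descriptions. Leaving out 1 library, genes called higher in STZ numbered 426 to 695, against 699 with all 6, and genes called lower in STZ 236 to 596, against 552. Members called higher in STZ numbered 2 to 4, against 5, and pathway list counts were 6 to 11, against 10. Both counts over all genes were lowest without STZ pool 1 (426 and 236), followed by control pool 1 (444 and 276), and genes called lower in STZ numbered 355 without STZ pool 3. The pathway count was 6 without each of these 3. The labels do not say whether equal replicate numbers pair the libraries. Deviations from the group means of same-numbered libraries correlated at 0.12, -0.13 and -0.16, which with 3 libraries per group cannot exclude a pairing. With a replicate block 3 members were called higher (Socs3, Osmr and Il4ra) and 571 genes higher and 430 lower. Stat3 also lost its call after thinning to the smallest library and with upper-quartile normalization (4 members higher in each). Without length scaling Lifr, not Jak1, had the highest level, at 395 CPM in STZ and 305 CPM in control. Depth limits precision where counts are low, as for Socs2 (148 to 255 deposited counts), Socs3 in control (100 to 244) and the ligands. Intervals cover counting error and the spread between pools, not between mice.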

Other observations

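Within single libraries the partner chains stood higher relative to gp130 in STZ. The ratio of Lifr to Il6st CPM was 2.15, 2.78 and 2.28 in STZ pools 1, 2 and 3, against 1.5, 1.42 and 1.99 in control pools 1, 2 and 3. The ratio of Osmr to Il6st was 0.526, 0.640 and 0.574 in STZ, against 0.404, 0.340 and 0.449 in control. Neither ratio overlapped between the groups. The ratio of Socs3 to Stat3 was 0.507 ± 0.0473 in STZ and 0.208 ± 0.0558 in control (SD, n = 3 each). These ratios were chosen after the members' values were seen and were not tested.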
